A study of Mus musculus with 30 samples.

Results

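The genes that buffer and move zinc in liver were examined in RNAseq of 30 livers, as 8 rows of a count table of 55487 genes chosen by name: the metallothioneins Mt1 and Mt2, the metal-sensing transcription factor Mtf1, the zinc importers Slc39a14, Slc39a4 and Slc39a5, and the exporters Slc30a1 and Slc30a10. All 8 names were found once in the table. The mice were male C57BL/6 animals, 8 weeks old, fed regular chow (RCD) or a methionine- and choline-deficient diet (MCD) for 6 weeks. From week 4 to week 6 they received 2 doses per week of a monoclonal antibody against ACBP/DBI (anti-DBI) or of a mouse IgG2a isotype control (IgG). The 4 groups were thus RCD with IgG or with anti-DBI, of 5 mice each, and MCD with IgG or with anti-DBI, of 10 mice each. All mice had an antibody injected, the labels name no genetic change, and RCD was a regular chow and not the MCD formula with methionine and choline added, so that lack of these nutrients and the other differences between the diets cannot be told apart. The labels do not state how the mice were housed or whether each library is 1 mouse processed apart from the others, so the spread given here is that between libraries.

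Metallothioneins are small, cysteine-rich proteins that hold zinc and copper ions and release them to other proteins. When free zinc rises, the zinc-finger protein MTF1 binds short metal response elements in the promoters of the metallothionein genes and of the exporter gene Slc30a1 and raises their transcription. In liver, glucocorticoids and acute phase cytokines such as interleukin 6 also induce Mt1 and Mt2, and interleukin 6 induces the importer Slc39a14. Slc39 (ZIP) proteins bring zinc into the cytosol and Slc30 (ZnT) proteins take it out.

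The libraries held 8.36 to 21.7 M counts (1 M is 1e+06 counts, median 13.8 M) and 4.01% to 5.69% mitochondrial counts. Levels are counts scaled to 1e+06 per library (CPM) after TMM normalization over all libraries. Differences are log2 fold changes with their standard error (SE), and adjusted p is from edgeR's quasi-likelihood test with Benjamini-Hochberg adjustment over every gene tested, called below 0.05. The summed hepatocyte markers were 82700 to 185000 CPM in all 30 livers, and every one of these 8 markers was detected in each group. Their median sum was 121000 CPM with IgG and 110000 CPM with anti-DBI on RCD, and 114000 and 143000 CPM on MCD. Most of the sum was Alb (mean 82800 CPM in MCD IgG). In MCD IgG against RCD IgG, 0 of the 8 were called higher and 4 lower (median log2 fold change -0.43). In that comparison 57.1% of all genes tested were called (27.2% lower). With anti-DBI on MCD, 6 of the 8 were called higher and 0 lower (median log2 fold change 0.35), where 42.1% of all genes tested were called (20.4% higher). The summed monocyte and macrophage markers (8 of 8 detected in each group) differed with the diet. On RCD they were 90.3 to 129 CPM with IgG and 120 to 211 CPM with anti-DBI, and on MCD 209 to 1590 CPM with IgG and 144 to 969 CPM with anti-DBI. In MCD IgG against RCD IgG, the median marker sums were also higher for stellate cells and fibroblasts (474 and 228 CPM), cholangiocytes (105 and 36.5 CPM) and neutrophils (6.19 and 0.763 CPM) and lower for endothelial cells (156 and 296 CPM), and with anti-DBI on RCD that of Kupffer cells was 383 against 257 CPM. Their part in the results was not tested. In bulk liver, fewer cells of a type and less RNA per cell cannot be told apart. MCD anti-DBI 5 and 10 were more alike than any other pair within a group, with 8 of 9440 genes differing by more than 1.5-fold, against 133 of 8342 in the next most alike pair. A chi-square over these genes was 1.82 times its degrees of freedom for this pair and 8.95 for the next, so that they differed by more than sampling noise alone and by less than other livers. The labels do not say whether they share an animal, and they were kept as 2 of the 10. The main differences of members that rest on MCD anti-DBI are also given without them, and with both summed to 1 library every call of a member was the same, whereas the genes of the lists were not tested again without them.

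Mt1 and Mt2 lie next to each other on chromosome 8 (GRCm38, 94179082 to 94180327 and 94172664 to 94173568, both on the forward strand). The other members lie on chromosomes 4 (Mtf1, 124802104 to 124849800), 14 (Slc39a14, 70303469 to 70351425), 15 (Slc39a4, 76612383 to 76617384), 10 (Slc39a5, 128395931 to 128401229) and 1 (Slc30a1, 191906767 to 191913247, and Slc30a10, 185454848 to 185468762). Because Mt1 and Mt2 moved together in the data below, their promoters are shown here from RefSeq (GRCm38.p6), from 250 bases before to 50 bases after the start that RefSeq gives, together with those of the exporters. The capitals mark the core of the metal response element, searched as TGCACNC and TGCGCNC on both strands, so that a core on the opposite strand is read as its reverse complement. The windows are chr8:94178839-94179138 for Mt1, chr8:94172368-94172667 for Mt2, chr1:191906531-191906830 for Slc30a1 and chr1:185454598-185454897 for Slc30a10, all on the forward strand.
Mt1: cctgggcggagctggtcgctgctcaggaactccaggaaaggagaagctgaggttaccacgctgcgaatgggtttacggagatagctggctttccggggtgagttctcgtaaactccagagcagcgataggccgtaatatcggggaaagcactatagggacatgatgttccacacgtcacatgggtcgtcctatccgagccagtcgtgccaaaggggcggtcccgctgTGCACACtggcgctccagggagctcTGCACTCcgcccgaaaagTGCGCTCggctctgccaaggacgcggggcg
Mt2: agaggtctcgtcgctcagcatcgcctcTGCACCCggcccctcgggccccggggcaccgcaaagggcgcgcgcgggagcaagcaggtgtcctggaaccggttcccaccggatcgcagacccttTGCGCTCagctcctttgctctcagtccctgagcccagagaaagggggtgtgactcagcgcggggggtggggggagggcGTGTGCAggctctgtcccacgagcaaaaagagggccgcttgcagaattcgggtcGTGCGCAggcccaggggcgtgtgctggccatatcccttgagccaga
Slc30a1: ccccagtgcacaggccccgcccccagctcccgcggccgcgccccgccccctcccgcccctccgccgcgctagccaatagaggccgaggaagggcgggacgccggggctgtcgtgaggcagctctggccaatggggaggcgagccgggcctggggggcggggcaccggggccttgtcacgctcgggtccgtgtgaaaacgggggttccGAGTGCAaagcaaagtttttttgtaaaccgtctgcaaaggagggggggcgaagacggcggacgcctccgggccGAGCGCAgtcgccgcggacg
Slc30a10: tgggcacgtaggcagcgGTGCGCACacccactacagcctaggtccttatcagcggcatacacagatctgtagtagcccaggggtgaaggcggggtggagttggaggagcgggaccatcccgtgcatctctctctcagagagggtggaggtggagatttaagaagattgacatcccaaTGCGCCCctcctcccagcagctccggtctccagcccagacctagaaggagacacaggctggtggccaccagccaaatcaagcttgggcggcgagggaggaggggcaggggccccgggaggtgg
The Mt1 window held 3 cores and the Mt2 window 4, with none of them overlapping. Of 32841 promoters of the same length, 25.7% held at least 1 core (12.6% TGCACNC and 15.4% TGCGCNC), 1.97% held 3 or more and 0.518% held 4 or more. The first base of the Mt1 cores lay at -23, 3 and 21 relative to the RefSeq start, and that of the Mt2 cores at -223, -128, -50 and 5. Slc30a1 had 2 cores, at -43 and 31, both on the opposite strand. Slc30a10 had 3 matches, of which the pair at -233 and -232 are the same palindromic letters read on both strands and overlap, and the other one lay at -73. The Mtf1 window had no match, and of the pair of Slc39a5 windows 1 had a single core. RefSeq windows were matched for 6 of the 8 genes, not for Slc39a14 and Slc39a4. A match is a description of the letters and not of binding. The windows rest on the RefSeq start alone, so that cores beyond them or near another start were not counted.

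Mt1 and Mt2 had the largest differences of all members in each comparison with RCD IgG. The Mt1 level was 6.07, 7.25, 9.15, 6.42 and 4.29 CPM in the RCD IgG livers (44 to 96 counts). In RCD anti-DBI it was 14.8, 58.5, 67, 82 and 47.5 CPM. It was 115 to 351 CPM in MCD IgG (median 188) and 37.2 to 627 CPM in MCD anti-DBI (median 175). Every liver of the other groups lay above every RCD IgG liver, and RCD anti-DBI 1 was the lowest of them. Mt2, the second of the inducible pair, was at 2.71, 2.17, 1.81, 2.09 and 1.76 CPM in RCD IgG (18 to 26 counts) and at 4.13, 30.4, 41.9, 49.6 and 20.8 CPM in RCD anti-DBI. It was 40.6 to 169 CPM in MCD IgG (median 92.5) and 13.6 to 446 CPM in MCD anti-DBI (median 94.5). The order of the livers for Mt2 was thus close to that for Mt1, with RCD anti-DBI 1 again lowest outside RCD IgG.

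**Figure D1:**
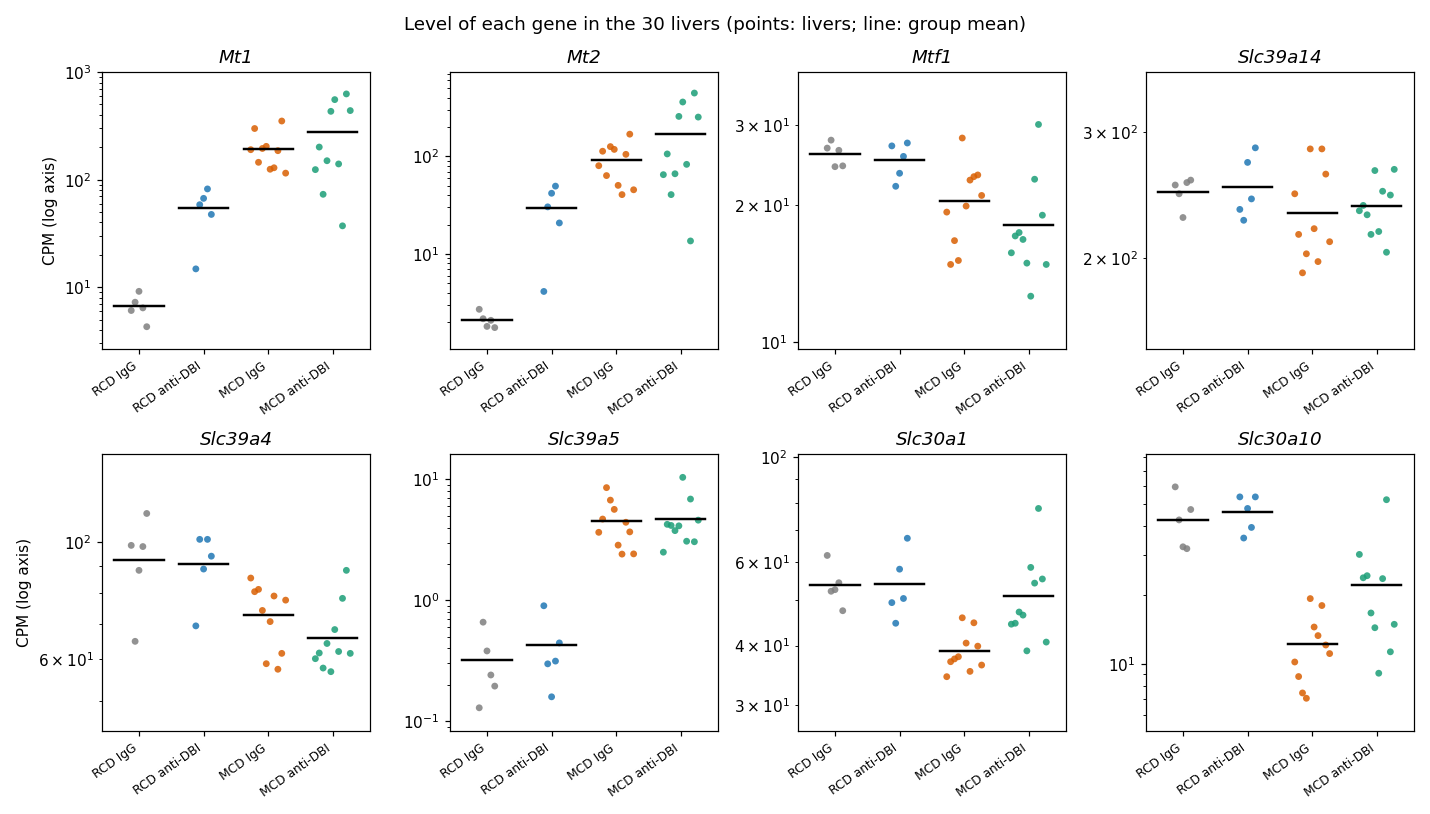
Level of the 8 genes in each liver, in CPM on a log axis that differs between panels, with the 4 groups on the x axis. Points are livers and lines are group means. The means of Mt1 and Mt2 were lowest in RCD IgG, higher in RCD anti-DBI and highest in the MCD groups. Slc39a5 was low in both RCD groups. The mean of Slc30a10 was lower in both MCD groups than in either RCD group, and lowest in MCD IgG.

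On MCD with IgG, Mt1 rose by 4.87 (SE 0.316, adjusted p = 6.91e-10) and Mt2 by 5.46 (SE 0.418, adjusted p = 6e-09) on the log2 scale versus RCD IgG, or 29.3-fold and 43.9-fold. Slc39a5, which encodes ZIP5, an importer of the basolateral membrane, rose by 3.73 (SE 0.432, adjusted p = 9.81e-07). With 1 to 7 counts in RCD IgG, Slc39a5 passed the filter on low counts only through the MCD livers where it was high. Both exporters fell. Slc30a10 fell by 1.79 (SE 0.202, adjusted p = 7.65e-07) and Slc30a1 fell by 0.45 (SE 0.077, adjusted p = 7.35e-05). In all, 7 of the 8 members passed the test, 3 higher and 4 lower, in a comparison in which 57.1% of 13672 genes tested passed (29.9% higher and 27.2% lower). Whether the shares differ was not tested. The median log2 fold change over the 8 was -0.21, against 0.026 over all genes tested.

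Anti-DBI on RCD gave a narrower response. Of the 7 members tested, 2 rose and 0 fell, where 6.08% of 12699 genes passed (2.93% higher and 3.15% lower). Mt1 rose by 3.02 (SE 0.372, adjusted p = 0.000517) and Mt2 by 3.81 (SE 0.543, adjusted p = 0.00113), which is 8.09-fold and 14-fold. Without RCD anti-DBI 1, the lowest liver, the differences were 3.26 for Mt1 and 4.1 for Mt2. The other 5 tested members had log2 fold changes between -0.04 (Mtf1) and 0.12 (Slc30a10), with adjusted p from 0.749 to 0.974. Slc39a5 was not tested here, at 1 to 7 counts in RCD IgG and 2 to 12 counts in RCD anti-DBI. In the rank test that the study's methods name (Kruskal-Wallis with Dunn's test over the 4 groups), neither Mt1 nor Mt2 passed in this comparison (Bonferroni-adjusted p = 1 for each), although no liver of RCD anti-DBI overlapped with RCD IgG.

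On MCD, the metallothioneins did not pass the test with the antibody. Mt1 differed by 0.51 (95% interval -0.25 to 1.27, adjusted p = 0.305) and Mt2 by 0.88 (95% interval 0 to 1.77, adjusted p = 0.122). These intervals do not exclude a rise, and the groups overlapped. Within MCD anti-DBI the livers spread widely, with Mt1 at 432, 555, 627 and 439 CPM in livers 5, 6, 9 and 10, at 73.1 to 201 CPM in livers 1, 2, 3, 4 and 7, and at 37.2 CPM in liver 8. Livers 5, 6, 9 and 10 thus exceeded the highest MCD IgG liver (351 CPM), and livers 3 and 8 lay below the lowest (115 CPM). Without liver 8, Mt2 passed the test (1.02, adjusted p = 0.043). Without livers 5 and 10, the differences were 0.29 for Mt1 (adjusted p = 0.609) and 0.69 for Mt2 (adjusted p = 0.276).

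The difference between the antibody effects on the diets was tested directly as an interaction over all 30 libraries. It was -2.5 for Mt1 (SE 0.686, adjusted p = 0.0102) and -2.92 for Mt2 (SE 0.926, adjusted p = 0.0252), that is, the log2 response to anti-DBI was smaller on MCD. These were the only members called (0 higher, 2 lower of 8), where 19.2% of 14335 genes passed (10.6% higher and 8.63% lower). In means, anti-DBI took Mt1 from 6.64 ± 1.77 to 54 ± 25.3 CPM on RCD (SD, n = 5 each), and Mt1 was 194 ± 77.2 and 278 ± 214 CPM on MCD (SD, n = 10 each). With MCD anti-DBI 5 and 10 left out, the interaction was -2.72 for Mt1 and -3.12 for Mt2 (adjusted p = 0.00716 and 0.022). Without RCD anti-DBI 4, the Mt2 interaction no longer passed (-2.64, adjusted p = 0.0548).

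MCD anti-DBI was last set against RCD IgG, which had neither treatment. Mt1 was higher by 5.38 (SE 0.698, adjusted p = 1.44e-05), Mt2 by 6.34 (SE 0.878, adjusted p = 2.73e-05) and Slc39a5 by 3.78 (SE 0.453, adjusted p = 6.28e-06), and without MCD anti-DBI 5 and 10 these values were 5.16, 6.14 and 3.81. Mtf1 was lower by a log2 fold change of -0.52 (adjusted p = 0.011), Slc39a4 by -0.49 (adjusted p = 0.00302) and Slc30a10 by -0.96 (adjusted p = 0.0185). In total 6 of 8 members were called, 3 in each direction, where 36.5% of 13912 genes passed (18.4% higher and 18.1% lower). Slc39a5, counted among them, again passed the filter on low counts only through its MCD livers. The comparison shares its RCD IgG livers with the comparisons of the diet and of the antibody on RCD. Without RCD IgG 1, Slc30a10 no longer passed (-0.82, adjusted p = 0.0671), nor did it without MCD anti-DBI 5 and 10 (-0.85, adjusted p = 0.0512).

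**Figure D2:**
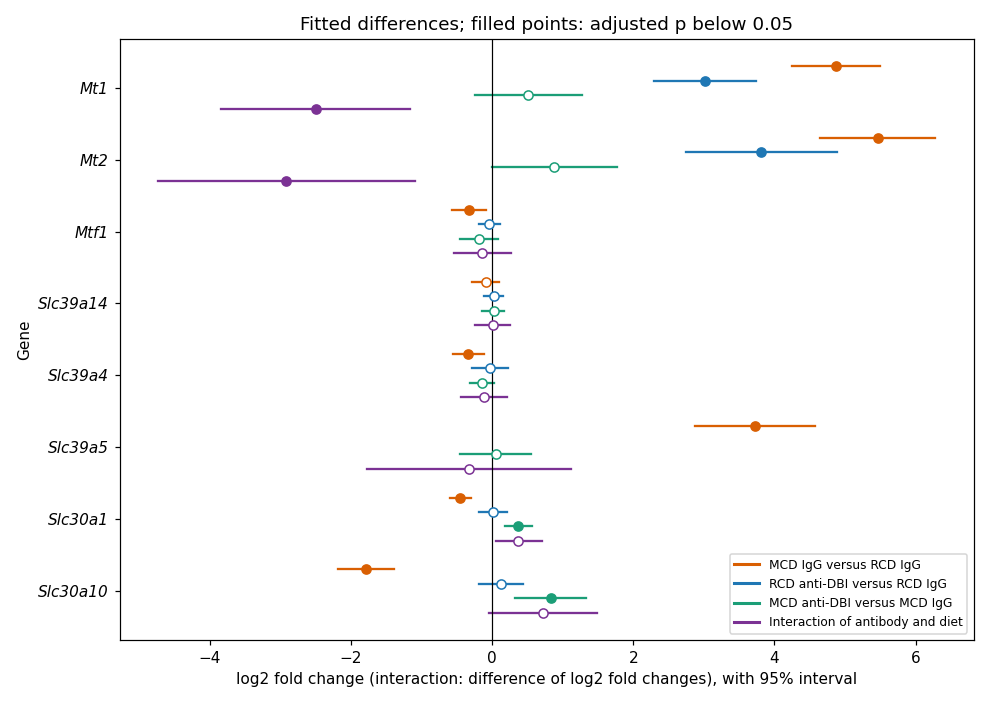
Log2 fold change of each gene (y axis) with its 95% interval in 3 comparisons, and the interaction as a difference of log2 fold changes (x axis). Filled points passed at an adjusted p below 0.05. Mt1 and Mt2 stand to the right with MCD and with anti-DBI on RCD and to the left in the interaction, while Slc39a5 has no value for anti-DBI on RCD.

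Mtf1, the sensor that activates metallothionein genes, was at 24.3 to 27.8 CPM in RCD with IgG and 22 to 27.4 CPM with anti-DBI. On MCD its range was wider, at 14.8 to 28.1 CPM with IgG and 12.6 to 30.1 CPM with anti-DBI. The mean was 25.9 ± 1.53 CPM in RCD IgG and 20.4 ± 4.16 CPM in MCD IgG (SD, n = 5 and 10). The fall with MCD was small (-0.33, SE 0.124, adjusted p = 0.0295), the groups overlapped, and the call was lost when only genes with 10 or more counts per library were kept (adjusted p = 0.053), with upper-quartile scaling (adjusted p = 0.0804) and when RCD IgG 1, 2 or 4 was left out. With anti-DBI it differed by -0.04 on RCD (adjusted p = 0.82) and by -0.19 on MCD (adjusted p = 0.273).

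Among the importers, Slc39a14, whose product ZIP14 carries zinc, manganese and iron into hepatocytes and is known as an acute phase gene, was not called in any comparison. It was at 228 to 257 CPM (IgG) and 226 to 285 CPM (anti-DBI) on RCD, and at 191 to 284 CPM (IgG) and 204 to 266 CPM (anti-DBI) on MCD. Its log2 fold changes were -0.09 for MCD (95% interval -0.28 to 0.1), 0.02 for anti-DBI on RCD (95% interval -0.11 to 0.16) and 0.02 for anti-DBI on MCD (95% interval -0.14 to 0.17). Slc39a4, best known as the intestinal zinc importer, was at 64.9 to 113 CPM in RCD IgG and 57.5 to 85.4 CPM in MCD IgG. It fell with MCD by 0.34 (SE 0.115, adjusted p = 0.0178), a call lost with upper-quartile scaling (adjusted p = 0.0717) or without RCD IgG 5 (adjusted p = 0.078), and was at 56.9 to 88.3 CPM in MCD anti-DBI (-0.15 versus MCD IgG, adjusted p = 0.172).

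Slc39a5 was close to 0 on RCD. It had 1, 7, 4, 3 and 2 counts in the RCD IgG livers (0.129 to 0.659 CPM) and 12, 3, 2, 4 and 5 counts in RCD anti-DBI, against 37 to 103 counts in MCD IgG (2.41 to 8.55 CPM) and 43 to 154 counts in MCD anti-DBI (2.5 to 10.4 CPM). No liver on MCD overlapped with a liver on RCD. The antibody left it at a difference of 0.05 on MCD (95% interval -0.45 to 0.55, adjusted p = 0.894). Slc39a5 is known to be expressed in pancreatic acinar cells as well, so the acinar markers were examined. Their sum was 15 to 23.9 CPM in RCD IgG and 7.01 to 12.8 CPM in MCD IgG over 7 markers, with Prss2 at 0 in every group. Most of the sum was Cela1 (mean 16.3 and 8.75 CPM). Cela2a had a mean of 0.251 CPM in RCD IgG, 0.623 CPM in RCD anti-DBI, 0.726 CPM in MCD IgG and 0.949 CPM in MCD anti-DBI. Versus RCD IgG, where it had 1 to 4 counts, it was tested only in MCD anti-DBI (log2 fold change 1.9, adjusted p = 0.00153). The sum of 5 intestinal markers was 189 to 319 CPM in RCD IgG, 2560 to 6850 CPM in MCD IgG and 786 to 3260 CPM in MCD anti-DBI, with Sis at 0 in all groups, and was nearly all Apoa4 (mean 194, 4080 and 1300 CPM), which fell by 1.66 with anti-DBI on MCD (adjusted p = 2.1e-05). The other intestinal markers tested, Vil1 and Fabp2, rose with MCD by 3.19 (adjusted p = 1.21e-05) and 0.49 (adjusted p = 0.0013). With anti-DBI on MCD they differed by 0.38 (adjusted p = 0.243) and -0.04 (adjusted p = 0.733). The part of these markers in the result was not tested.

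The exporters followed another order. Slc30a1, whose product ZnT1 extrudes zinc across the plasma membrane, was at 62, 52.1, 52.5, 54.3 and 47.4 CPM in RCD IgG and at 49.3, 44.6, 58, 50.3 and 67.4 CPM in RCD anti-DBI. In MCD IgG it was 34.4 to 45.8 CPM (median 37.7), below every RCD IgG liver. In MCD anti-DBI it was 39 to 77.9 CPM (median 46.8), overlapping with both. Slc30a10, whose product ZnT10 is known above all for exporting manganese from hepatocytes, was at 59.4, 42.6, 32.5, 31.9 and 47.3 CPM in RCD IgG and at 53.7, 35.5, 47.8, 39.5 and 53.7 CPM in RCD anti-DBI. It was 7.08 to 19.3 CPM in MCD IgG (median 11.6) and 9.11 to 52.2 CPM in MCD anti-DBI (median 20.1). MCD IgG again lay wholly below RCD IgG, and only liver 8 of MCD anti-DBI (52.2 CPM) reached above 31.9 CPM, the lowest RCD IgG liver.

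With anti-DBI on MCD both exporters rose, Slc30a1 by 0.37 (SE 0.0999, adjusted p = 0.00509) and Slc30a10 by 0.83 (SE 0.258, adjusted p = 0.0132). These 2 of 8 members, with 0 lower, compare with 42.1% of 13538 genes that passed (20.4% higher and 21.7% lower), and whether the shares differ was not tested. This comparison shares its 10 MCD IgG livers with that of the diet, so that a chance deviation of these livers enters both with opposite signs. Without liver 8, the highest for both, the differences were 0.29 (adjusted p = 0.00519) and 0.6 (adjusted p = 0.0285), and without livers 5 and 10 they were 0.45 (adjusted p = 0.00128) and 0.95 (adjusted p = 0.00913). Slc30a10 did not pass in the Dunn test (adjusted p = 0.478). The antibody effects on the diets were not shown to differ (interaction 0.37, adjusted p = 0.112, for Slc30a1 and 0.72, adjusted p = 0.197, for Slc30a10). Versus RCD IgG, Slc30a1 in MCD anti-DBI differed by -0.08 (95% interval -0.33 to 0.18, adjusted p = 0.669), whereas Slc30a10 was lower, as given above.

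Levels were compared between genes after division by the exon length of the transcript that Ensembl marks as canonical (GENCODE M39), 762 bases for Mt1 and 748 for Mt2. In RCD IgG the mean was highest for Slc39a14 (47.7 CPM per kilobase) and Slc39a4 (33.5). Slc30a1 (10.2 ± 1), Mt1 (8.71 ± 2.33) and Slc30a10 (7.23 ± 1.93) followed, and neighbours in this order did not differ beyond their SDs. Mtf1 (3.39 ± 0.2), Mt2 (2.82 ± 0.509) and Slc39a5 (0.163) were lowest. In MCD IgG, Mt1 at 254 CPM per kilobase and Mt2 at 122 led, followed by Slc39a14 at 44.5 and Slc39a4 at 26.3. The lengths depend on the transcripts counted. With all annotated exons joined, retained introns included, Slc39a4 (22.2) and Slc39a14 (20.5) changed places in RCD IgG, as did Slc30a10 (5.55) and Mt1 (5.33), and Mt1 and Mt2 still led in MCD IgG (156 and 96).

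Liver by liver, Mt1 and Mt2 rose and fell together. Within the MCD groups, 56 correlations between members were computed on log2(CPM + 1), each by a permutation test with 100000 resamples. Mt1 and Mt2 had r = 0.90 in MCD IgG (rho = 0.90, adjusted permutation p = 0.00258 for r and 0.0111 for rho) and r = 1.00 in MCD anti-DBI (rho = 0.98, adjusted permutation p = 0.00056 and 0.00112). Without the 2 livers farthest from the median Mt1 level, r was 0.84 and 0.99. The ratio of Mt1 to Mt2 counts had a median of 3.08 in RCD IgG (2.24 to 5.05). The medians of the other groups were 1.92 (RCD anti-DBI), 2.32 (MCD IgG) and 1.77 (MCD anti-DBI), with ranges that overlapped, and the ratio was not tested.

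Slc30a10 ran against the metallothioneins in MCD anti-DBI. Liver 8 had the lowest Mt1 (37.2 CPM) and the highest Slc30a10 (52.2 CPM), and livers 5, 6, 9 and 10, with the highest Mt1, had Slc30a10 at 14.4, 9.11, 11.3 and 14.9 CPM. The correlation was r = -0.92 (rho = -0.93, adjusted permutation p = 0.00258 and 0.00728). It was -0.84 without the 2 livers farthest from the median, -0.92 with MCD anti-DBI 5 and 10 averaged to 1 value (n = 9), and -0.79 over the 6 livers with Mt1 below 300 CPM, given without a test. In MCD IgG the same pair had r = -0.08, and the difference between the groups was not tested. Mtf1 and Slc30a10 were positively related in MCD IgG (r = 0.89, rho = 0.84, adjusted permutation p = 0.00775 and 0.0357, r = 0.86 without the 2 farthest livers), and in MCD anti-DBI the relation did not pass (r = 0.74, adjusted permutation p = 0.0929). Slc39a4 and Slc30a1 were inversely related in MCD IgG (r = -0.93, rho = -0.87, adjusted permutation p = 0.00258 and 0.0236, r = -0.82 without the 2 farthest livers) but had r = 0.71 in MCD anti-DBI (adjusted permutation p = 0.0929). In total 6 of the 56 relations passed for r.

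**Figure D3:**
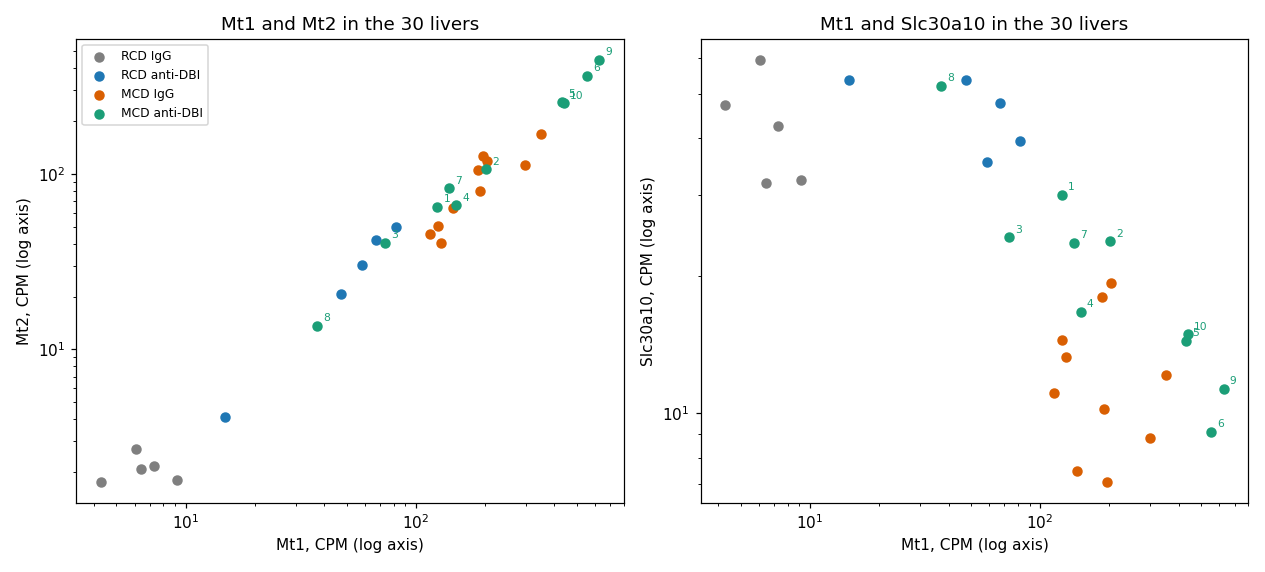
Mt2 (left) and Slc30a10 (right) against Mt1 in the 30 livers, in CPM on log axes. Colours are the 4 groups and numbers are the MCD anti-DBI replicates. Mt2 follows Mt1 over all groups, and Slc30a10 falls with rising Mt1 among the MCD anti-DBI livers, from 52.2 CPM in liver 8 to 9.11 CPM in liver 6.

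The 4 MCD anti-DBI livers with Mt1 above 400 CPM also differed from the other 6 in some genes of the glucocorticoid and acute phase lists. Livers 5 and 10, the most alike pair, are 2 of these 4. Per1, a clock gene that glucocorticoids induce, was at 130, 131, 134 and 138 CPM in livers 5, 6, 9 and 10 and at 47.3 to 80.8 CPM in the other 6. Hp, the acute phase protein haptoglobin, was at 4540, 4480, 4780 and 4530 CPM in these livers and at 2630 to 4040 CPM in the others. Il6ra, the interleukin 6 receptor, was at 77, 80.5, 84.2 and 75.2 CPM and at 36.2 to 68.8 CPM. Tsc22d3, another glucocorticoid-induced gene, did not separate them, at 90.7, 31.2, 75.2 and 85.7 CPM against 28.3 to 141 CPM, nor did Fkbp5, at 98.3, 133, 131 and 100 CPM against 55 to 119 CPM. Saa1 did not separate them either, at 882, 199, 173 and 859 CPM against 345 to 1080 CPM. Stat3 overlapped as well, at 152, 127, 120 and 158 CPM against 97.7 to 136 CPM. So did Socs3, at 17.2, 14.9, 12.4 and 19 CPM against 7.26 to 22.8 CPM. Within MCD anti-DBI, r with Mt1 was 0.82 for Fkbp5, 0.61 for Hp, -0.12 for Tsc22d3 and -0.31 for Saa1, given without a test. The other genes of the glucocorticoid list are not given by liver. These livers and genes were singled out after their values were seen, and the part of these genes in the Mt1 level was not tested.

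Across all members, the genes most like each over the 30 livers were ranked by Pearson's r after subtraction of the group mean, among 11916 genes, as a description. For Mt1 these were Mt2 (r = 0.969), Gnl1 (0.825), Gpcpd1 (0.815), Klf13 (0.803) and Pnpla2 (0.8), the last encoding adipose triglyceride lipase. For Mt2 they were Mt1, Got1 (0.802), Gpcpd1 (0.8), Gnl1 (0.776) and Ldb1 (0.761). Gnl1 had r = 0.271 with Mt1 within MCD IgG and 0.964 within MCD anti-DBI, so that its place rested on the latter group, livers 5 and 10 included. Mtf1 was most like Lig4 (0.877), Fpgt (0.866), Glyctk (0.864), Rbm15b (0.853) and Mis12 (0.849), and Slc30a10 most like Shld2 (0.863), Lrrc28 (0.862), Otub2 (0.86), S1pr1 (0.858) and Lysmd3 (0.854). Slc30a1 was most like Scaf4 (0.777), Timm29 (0.772), Znhit2 (0.77), Pdik1l (0.763) and Glud1 (0.757). The likeness was weaker for Slc39a14, led by Ddx3x and Itih4 (0.692 each), Itih3 (0.685), Tomm70a (0.678) and Isca1 (0.677), and for Slc39a4, whose most like genes included Kifc3 (0.704), Tgfbr2 (0.693), Tmc7 (0.684) and Naa40 (0.683).

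The wider family was followed through lists. The other metallothioneins were not expressed at a measurable level. Mt4 had 0 counts in all 30 libraries, which allows up to 0.00705 CPM (3 counts over the summed libraries, counting error only), and Mt3 had at most 3 counts in a library. Of 19 other zinc transporters, 15 were tested. With MCD, 6 of them rose and 1 fell (median log2 fold change 0.24), where 57.1% of all genes passed (29.9% higher and 27.2% lower). Slc39a13 rose by 0.66 (adjusted p = 6.4e-06), Slc39a3 by 0.6 (adjusted p = 1.53e-05) and Slc39a11 by 0.3 (adjusted p = 0.000692), while Slc39a8 fell by 0.51 (adjusted p = 0.000418). Upper-quartile scaling moved the median of all genes from 0.026 to 0.104 in this comparison, so differences near that size depend on the scaling.

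With anti-DBI on MCD, 1 of the 15 rose and 7 fell (median log2 fold change -0.12), where 42.1% of all genes passed (20.4% higher and 21.7% lower). Slc39a8, whose product ZIP8 imports zinc and manganese, was the one that rose, by 0.72 (SE 0.0772, adjusted p = 5.97e-07). Its level was 12.6 to 22.3 CPM in MCD IgG and 26.2 to 31.9 CPM in MCD anti-DBI, with no overlap, against 23.7 to 27.5 CPM in RCD IgG and 28.7 to 38.6 CPM in RCD anti-DBI. Anti-DBI raised it on RCD too, by 0.37 (SE 0.0848, adjusted p = 0.0194), and the difference between the diets passed (interaction 0.36, adjusted p = 0.0415). Slc39a6 fell by 0.82 (adjusted p = 0.00173), Slc39a3 by 0.23 (adjusted p = 0.00687) and Slc39a10 by 0.71 (adjusted p = 0.00702). On RCD, Slc39a1 (0.35, adjusted p = 0.00356) and Slc39a8 rose and 0 of the 15 fell, where 6.08% of all genes passed. Slc39a1 also had a called interaction, of -0.29 (adjusted p = 0.0285), which with Slc39a8 made 1 higher and 1 lower of the 15. Of all genes, 19.2% passed in the interaction (10.6% higher and 8.63% lower).

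**Figure D4:**
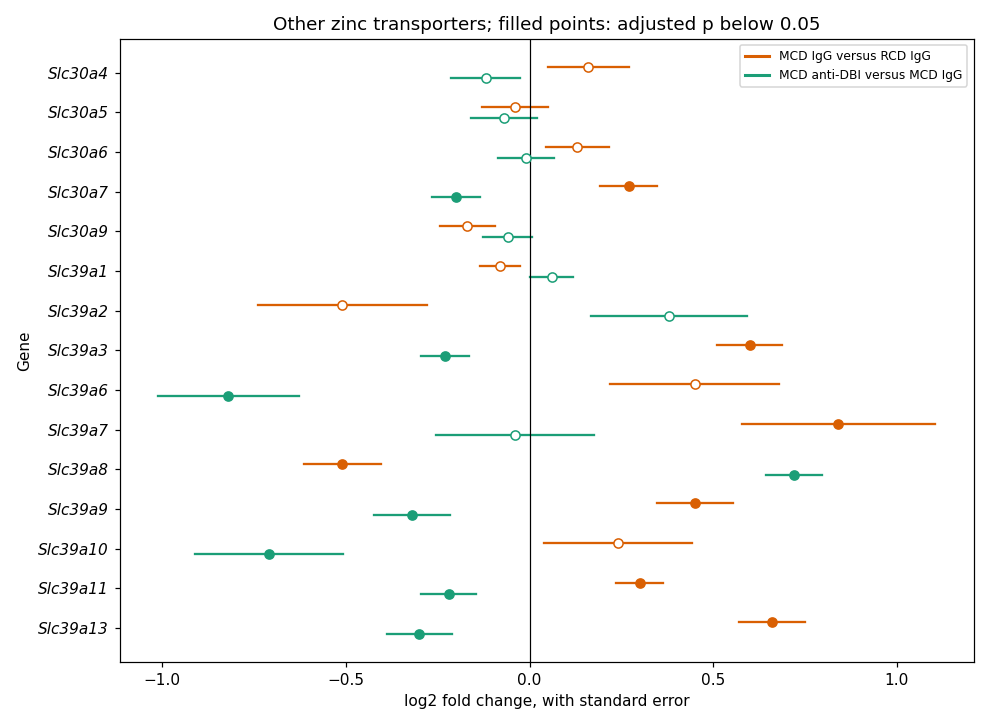
Log2 fold change with SE (x axis) of the 15 other zinc transporters tested (y axis), for MCD and for anti-DBI on MCD. Filled points passed at an adjusted p below 0.05. Slc39a8 is lower with MCD (-0.51) and higher with anti-DBI on MCD (0.72), and both comparisons share the 10 MCD IgG livers, with opposite signs.

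Genes that handle other metals were counted in the same way, against the same 57.1% of all genes with MCD, 42.1% with anti-DBI on MCD and 6.08% with anti-DBI on RCD. Of 10 copper genes, 2 rose and 4 fell with MCD, among them the importer Slc31a1 (-0.7, adjusted p = 1.12e-07) and the copper- and zinc-dependent superoxide dismutase Sod1 (-0.63, adjusted p = 3.7e-07). With anti-DBI on MCD, 3 rose and 2 fell, and Sod1 (0.48, adjusted p = 3.39e-06) and Slc31a1 (0.42, adjusted p = 1.59e-05) were among those that rose. On RCD 1 rose (Cp, ceruloplasmin, by 0.4, adjusted p = 0.00308) and 0 fell. Of 8 manganese and iron carriers, 4 rose and 1 fell with MCD, 2 rose and 4 fell with anti-DBI on MCD, and 0 rose and 1 fell with anti-DBI on RCD. Tfrc, the transferrin receptor, went up by 0.92 with MCD (adjusted p = 4.07e-05) and down by 0.93 with anti-DBI on MCD (-0.93, adjusted p = 2.76e-05). It was also lower with anti-DBI on RCD (-0.75, adjusted p = 0.0477), and its interaction was not called (-0.16, adjusted p = 0.722). The comparisons with MCD and with anti-DBI on MCD share the MCD IgG livers, with opposite signs.

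Of 13 genes for zinc enzymes of liver, 12 were tested on MCD, where 4 rose and 7 fell with the diet (57.1% of all genes passed). The carbonic anhydrase Car2 rose by 2.97 (adjusted p = 1.9e-09), while its relatives Car3 (-1.95, adjusted p = 1.17e-08) and Car1 (-2.08, adjusted p = 5.26e-06) fell. With anti-DBI on MCD 6 rose and 2 fell (42.1% of all genes). Alpl, the zinc-dependent alkaline phosphatase, was lower by a log2 fold change of -1.01 with anti-DBI on MCD (adjusted p = 1.12e-05) and of -0.64 on RCD (adjusted p = 0.00339), where 1 of 11 rose and 3 fell (6.08% of all genes).

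Glucocorticoid and acute phase genes, both of which include known inducers or companions of metallothioneins, were listed for comparison. With MCD, Fkbp5 rose by 1.77 (adjusted p = 1.45e-06) and Sgk1 by 1.14 (adjusted p = 2.25e-06), and 5 of 12 fell, among them Nr3c1, the glucocorticoid receptor (-0.6, adjusted p = 1.74e-06), and Dusp1 (-1.74, adjusted p = 5.35e-05), where 57.1% of all genes passed. The acute phase genes Saa1 (1.97, adjusted p = 0.0113), Hp (1.02, adjusted p = 2.8e-07) and Socs3 (0.99, adjusted p = 0.0374) rose with MCD, while Il6ra fell by 0.52 (adjusted p = 0.00446). With anti-DBI on RCD, where Mt1 and Mt2 rose and 6.08% of all genes passed (2.93% higher and 3.15% lower), 1 of 12 rose (Sgk1, 0.37, adjusted p = 0.0258) and 1 fell (Hsd11b1, -0.28, adjusted p = 0.0266). Fkbp5 differed by -0.26 (adjusted p = 0.569), and whether the shares differ was not tested. In the same comparison the acute phase gene Saa1 rose by 5.78 (adjusted p = 2.27e-06), from 16.9 to 43.5 CPM in RCD IgG to 716 to 2700 CPM, and Hp by 1.32 (adjusted p = 3.65e-06). Il6ra was lower (-0.44, adjusted p = 0.0273), whereas Socs3 (0.43, adjusted p = 0.462) and Stat3 (0.21, adjusted p = 0.0843) did not pass. With anti-DBI on MCD, 4 of the 12 glucocorticoid genes rose, Klf9 (1.02, adjusted p = 0.000167), Hsd11b1 (0.7, adjusted p = 0.000408), Nr3c1 (0.29, adjusted p = 0.00129) and Pck1 (0.79, adjusted p = 0.0212), and Sgk1 fell by 0.59 (adjusted p = 0.000611), where 42.1% of all genes passed. In that comparison Saa1 rose by 2.56 (adjusted p = 0.000273) and Hp differed by 0.16 (adjusted p = 0.235). Within the MCD anti-DBI livers the order of Saa1 was not that of Mt1, as the values above show. Dbi, the gene of the antibody's target, was 0.92 lower on the log2 scale with MCD (-0.92, adjusted p = 1.34e-09), differed by 0.03 with anti-DBI on RCD (adjusted p = 0.856) and rose by 0.48 with anti-DBI on MCD (adjusted p = 6.96e-06).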

How the data were processed

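Liver RNAseq of 30 libraries in 4 groups was used. The whole-number counts deposited by the authors were assigned to genes with STAR and featureCounts on GRCm38, per the file header, while HISAT2 and GRCm39 stand in the paper's methods. The tool versions, the strand setting and the treatment of reads shared by similar genes are not given in the sources used here, so reads shared between Mt1 and Mt2 could be split. The normalized signal columns deposited by the authors are the counts divided by the DESeq2 size factor of each library, as checked to within 5.4e-15, and were not otherwise used. Their columns of p-values and fold changes were not used. Groups were taken from the sample titles.

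Tests were run with edgeR 4.0.16 in R 4.3.3 (filterByExpr, TMM, glmQLFit and glmQLFTest on the libraries compared, and on all 30 for the interaction). SE is the log2 fold change divided by the square root of F. The 8 members, the lists and the named genes (all members, up to 4 genes of a list with the smallest p, exceptions, and the 5 genes most like each member with a mean of at least 5 CPM) were chosen with earlier results of these data known. One gene most like Slc39a4 is not reported here. Correlations and plots were made in Python 3.11.15 with matplotlib 3.10.9. Alternatives were DESeq2 1.42.0, RLE and upper-quartile scaling, no filter, a minimum of 10 counts per library, a single fit of all libraries, a block for the replicate number, limma 3.58.1 on log2(CPM + 1), Kruskal-Wallis and Dunn tests, each library left out, and MCD anti-DBI 5 and 10 summed or, chosen after seeing the data, both left out. The tests were tried on simulated counts. With 5 to 10 libraries in a group, the spread between livers was above that from counting alone, except in RCD IgG for Slc39a5 (65.6% and 66.7% of the mean), Mt2 (18.1% and 21.8%) and Mtf1 (5.89% and 6.19%).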

Additional observations from a re-analysis of the deposited data

Results flagged for a closer look

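Liver 8 of MCD anti-DBI was far from the others for both exporters. Its Slc30a1 level was 77.9 CPM, with the next liver at 58.5 CPM, and its Slc30a10 level was 52.2 CPM, with the next at 30.1 CPM. The gap was 0.499 and 0.513 of the whole range, above Dixon's critical value at the 95% level for a group of 10. Of 32 sets of values (8 members in 4 groups), 2 were above it, and at that level chance alone gives about 1 in 20. The same liver had the lowest Mt1 (37.2 CPM) and Mt2 (13.6 CPM) and the highest Mtf1 (30.1 CPM) of its group.

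The log2 response to anti-DBI differed between the diets for the metallothioneins. The log2 difference on MCD minus that on RCD was -2.5 for Mt1 (adjusted p = 0.0102) and -2.92 for Mt2 (adjusted p = 0.0252) by the edgeR test of the interaction. All 5 RCD anti-DBI livers lay above all RCD IgG livers for both genes, and the MCD groups overlapped. In CPM the mean of Mt1 went from 6.64 to 54 on RCD and from 194 to 278 on MCD, and a difference on this scale was not tested.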

How the results depend on the processing

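No member's called difference changed direction in any alternative. Of 380 values of single members outside the fits that left out 1 library, 367 kept their call, 11 lost it and 2 gained it, and of 710 that left out 1 library, 701 kept it, 6 lost it and 3 gained it. Beyond those given with the results, Slc39a4 with MCD was not called in the replicate block (adjusted p = 0.168) or the Dunn test (0.279), Mtf1 with MCD was not called in the Dunn test (0.177), Slc30a10 in MCD anti-DBI versus RCD IgG was not called in the Dunn test (0.266), Slc30a1 in that comparison was called with the block (-0.27, 0.00804) and in the interaction without MCD anti-DBI 5 and 10 (0.45, 0.0472), and without MCD anti-DBI 8 and 9 Mtf1 (0.0451) and Slc39a4 (0.0434), respectively, passed with anti-DBI on MCD. The replicate numbers did not pair the libraries (r = -0.21 to 0.17 between the deviations of same-numbered livers). With the replicate block, 6, 2, 2 and 7 members passed in MCD IgG versus RCD IgG, anti-DBI on RCD, anti-DBI on MCD and MCD anti-DBI versus RCD IgG, and 2 in the interaction.

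Over all genes, anti-DBI on RCD called 772 genes, 333 with all 30 libraries in 1 fit and 228 with the Dunn test (not adjusted over genes), which called 2854 with anti-DBI on MCD (5696 by edgeR) and 2156 in MCD anti-DBI versus RCD IgG (5084 by edgeR). The Dunn test called 0 members with anti-DBI on RCD (2 by edgeR, 2553 genes at an unadjusted p below 0.05) and 1 with anti-DBI on MCD. On RCD it could not call Mt1 and Mt2, since it ranks all 30 livers together and most MCD livers lay higher. Leaving out 1 library gave 470 to 836 genes with anti-DBI on RCD (470 when RCD anti-DBI 3 and 471 when RCD IgG 5 was left out), 7218 to 7956 with MCD, 5195 to 5921 with anti-DBI on MCD, 4399 to 5544 in MCD anti-DBI versus RCD IgG and 2263 to 3129 in the interaction. It gave 6 to 7, 2 to 2, 2 to 4, 5 to 6 and 1 to 2 members in MCD IgG versus RCD IgG, anti-DBI on RCD, anti-DBI on MCD (4 without MCD anti-DBI 8), MCD anti-DBI versus RCD IgG and the interaction (1 without RCD anti-DBI 4). Without MCD anti-DBI 5 and 10, 2, 5 and 3 members passed with anti-DBI on MCD, in MCD anti-DBI versus RCD IgG and in the interaction. The cause of these changes was not tested. Depth limited Slc39a5, at 1 to 12 counts on RCD, and in RCD IgG Mt2, at 18 to 26 counts, and Mtf1, whose spreads between livers were no larger than counting gives.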
